A study of Mus musculus with 2 samples.

Results

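This account covers 9 mouse genes of the granulocyte-macrophage colony-stimulating factor (GM-CSF), interleukin-3 (IL-3) and leukaemia inhibitory factor (LIF) families, chosen by symbol: the cytokine genes Csf2, Il3, Csf1, Lif and Osm, and the receptor chain genes Csf2ra, Csf2rb, Csf2rb2 and Il3ra. They were read by 15 of the 34945 probe sets that the platform annotation assigns to exactly 1 gene, and by 9 of 18193 genes. A probe set is a group of short probes that together give 1 signal for a transcript. The study set T cells exposed to RPE, the retinal pigment epithelium that lines the outer retina and nourishes its photoreceptors, against control T cells, with 1 Affymetrix array for each, and its title names Th17 cells, the helper T cells that make interleukin-17. Both samples were labelled as from male mice of C57 BL/6 background aged 6 weeks. The exposed sample was named as T cells in its title and source, but its tissue field named primary cultured RPE. The control was titled CD4 T cells. How the T cells were activated, how long the exposure lasted and whether animals were pooled is not stated in the labels.

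GM-CSF, IL-3 and IL-5 are cytokines of activated T cells that act on myeloid cells through a private alpha chain and a shared beta chain. Mice have a further beta chain gene, Csf2rb2, whose product serves IL-3 alone. LIF and oncostatin M belong to the interleukin-6 family and signal through the gp130 chain, whereas macrophage colony-stimulating factor, from Csf1, acts through its own tyrosine kinase receptor. GM-CSF from helper T cells is known as a driver of tissue inflammation in models of autoimmunity, including those of the eye and brain.

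Because there was 1 array per group, no spread between samples exists, no test was made, and it is the array number that limits precision. The values are linear signal intensities in arbitrary units, already on a common scale when deposited. Each array's median signal served as a floor, 16 for RPE-exposed and 15.9 for control cells, and signals under it were raised to it before log2 differences were taken, RPE-exposed minus control. Of the 18193 genes, 11015 reached the floor on at least 1 array and were compared. Their median log2 difference was -0.009. Signals of different probe sets are not comparable with each other, so genes are set against each other by difference and not by level. The sums of marker signals given below weigh bright probe sets most and serve only to compare the arrays.

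The start regions of Csf2, Il3 and Lif are shown because these genes code for cytokines made by activated T cells and lie on mouse chromosome 11, Csf2 and Il3 as neighbours. Each runs from 250 bases before to 50 bases after the RefSeq start, 5′ to 3′, in GRCm38.p6: chr11:54249850-54250149 on the minus strand for Csf2, chr11:54267230-54267529 on the minus strand for Il3, and chr11:4257318-4257617 on the plus strand for Lif. Capitals mark the NFAT core GGAAA and the AP-1 motif TGANTCA on either strand, motifs of factors that T-cell receptor signalling activates.
Csf2: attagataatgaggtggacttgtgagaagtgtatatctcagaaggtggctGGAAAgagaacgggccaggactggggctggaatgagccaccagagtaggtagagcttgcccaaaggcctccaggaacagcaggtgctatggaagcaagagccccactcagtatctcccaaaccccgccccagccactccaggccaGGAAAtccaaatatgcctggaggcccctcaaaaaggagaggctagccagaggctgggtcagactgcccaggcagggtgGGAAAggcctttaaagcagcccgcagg
Il3: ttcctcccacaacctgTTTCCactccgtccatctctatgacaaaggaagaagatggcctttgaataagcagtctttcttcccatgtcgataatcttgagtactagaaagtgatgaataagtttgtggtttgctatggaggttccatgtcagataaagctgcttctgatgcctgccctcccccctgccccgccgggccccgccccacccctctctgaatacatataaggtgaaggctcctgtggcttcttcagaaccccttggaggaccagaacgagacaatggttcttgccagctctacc
Lif: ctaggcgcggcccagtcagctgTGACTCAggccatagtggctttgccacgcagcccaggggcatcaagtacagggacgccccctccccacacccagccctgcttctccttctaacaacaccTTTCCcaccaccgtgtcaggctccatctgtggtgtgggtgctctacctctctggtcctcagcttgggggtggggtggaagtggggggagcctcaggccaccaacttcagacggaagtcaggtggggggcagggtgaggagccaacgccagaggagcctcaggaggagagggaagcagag
In these windows Csf2 held 3 NFAT cores and no AP-1 motif, Il3 held 1 NFAT core and no AP-1 motif, and Lif held 1 of each. Whether these RefSeq starts are the ones used in T cells was not tested, and motifs outside the windows were not counted. A motif missing here may thus lie elsewhere at the gene. No marked motifs overlapped. Of 32851 mouse start regions of the same length, 61.3% held an NFAT core and 7.81% an AP-1 motif. Start regions were at hand for 7 of the 9 genes, all but Osm and Csf2rb.

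All 9 genes had a lower signal in RPE-exposed than in control T cells, against 51.5% of the 11015 genes compared. Csf2 was at least 2-fold lower, as were 0.626% of all genes compared, and no member was at least 2-fold higher, as 0.436% of all genes were. At a difference of 1.5-fold, a threshold taken after the values were seen, 4 of the 9 were lower (Csf2, Csf1, Lif and Il3), against 3.81% of all genes, and none was higher, against 3.11%. The median over the 9 genes was -0.55. Among the 15 probe sets, 14 gave a lower signal in RPE-exposed cells and 1, a dim Csf1 probe set under the floor on both arrays, gave a higher one, whereas 49.3% of all 34945 probe sets were lower. In RNA from many cells, fewer cells that express a gene and less RNA of it per cell cannot be told apart.

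**Figure D1:**
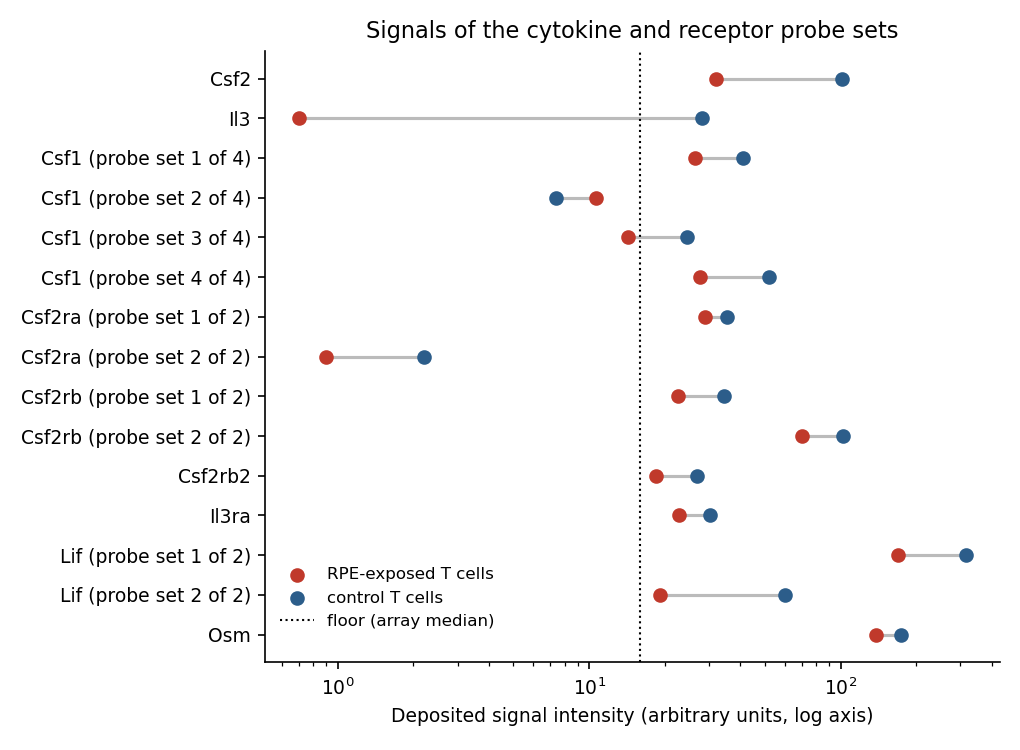
Signal of each of the 15 probe sets in RPE-exposed (red) and control (blue) T cells, on a log axis in arbitrary units, 1 array per group. The dotted line is the floor of 16, and 14 of the 15 red points lie left of their blue points.

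Csf2, which codes for GM-CSF, had the largest difference among the 8 members measured on both arrays. Its single probe set gave a signal of 32.1 in RPE-exposed cells, against 101.8 in control cells. The level in exposed cells was thus 3.17-fold lower, a log2 difference of -1.67. The central 95% of genes at a like mean level, meaning those in the same twentieth of the compared genes, ran from -0.75 to 0.65, so Csf2 lay under that range. Only 7 of the 10011 genes at or above the floor on both arrays had a lower value. With a 75th-percentile floor, which is above its signal in exposed cells, Csf2 was no longer 2-fold lower (-0.17).

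Il3, which codes for a growth factor of mast cells, basophils and early myeloid cells, reached the floor on the control array only. Its 1 probe set gave 0.7 in RPE-exposed cells, under the floor, and 28.1 in control cells. It was therefore at least 1.76-fold lower, a bound that lies within the range of -0.91 to 0.89 for genes of like level. Where signals under the floor were used in another way the value was larger, at -1.40 with an offset of 16, -2.61 with a 25th-percentile floor and -4.81 with no floor. The size of the Il3 difference could not be measured, because the signal in exposed cells was under the array's median.

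Lif, whose product acts through the LIF receptor and gp130, was lower on both of its probe sets. The brighter gave 169.0 in RPE-exposed cells, against 316.7 in control cells, a level 1.87-fold lower (-0.91). The dimmer gave 19.2 in RPE-exposed cells, against 60.2 in control cells, a level 3.14-fold lower (-1.65). The first lay under its like-level range of -0.52 to 0.46. Together the Lif probe sets gave -1.28 ± 0.525 (SD over 2 probe sets, which are not replicates of cells), so Lif was more than 2-fold lower when its probe sets were averaged and less than 2-fold lower on the brighter alone.

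Osm, the oncostatin M gene and the neighbour of Lif on chromosome 11, differed less. Its probe set gave 138.3 in RPE-exposed cells, against 173.7 in control cells, a log2 difference of -0.33 that lay within the like-level range of -0.54 to 0.53. In mice oncostatin M signals mainly through its own receptor chain and gp130.

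Csf1, which codes for macrophage colony-stimulating factor, was read by 4 probe sets near the floor. The brightest gave 27.6 in RPE-exposed and 51.8 in control cells, 1.88-fold lower in exposed cells (-0.91), within the like-level range of -0.995 to 0.70. A second gave 26.4 and 41.1 (-0.64, same order), and another gave 14.3 in RPE-exposed cells, under the floor, and 24.6 in control cells, at least 1.54-fold lower. The remaining one gave 10.6 in RPE-exposed and 7.4 in control cells, under the floor on both. The 2 probe sets at or above the floor on both arrays averaged -0.77 ± 0.19 (SD over probe sets). Averaging all 4 gave -0.45.

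The 4 receptor chain genes differed less than most of the ligands. Their median log2 difference was -0.48, with a range from -0.55 to -0.29 and none 1.5-fold lower, beside -0.91 for the 5 ligands, of which 4 were at least 1.5-fold lower. Every receptor value lay within its like-level range.

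Csf2rb, the beta chain shared by GM-CSF, IL-3 and IL-5, was measured by 2 probe sets that differed little from each other. The brighter gave 70.1 in RPE-exposed and 102.5 in control cells (-0.55). The dimmer gave 22.6 in RPE-exposed and 34.4 in control cells (-0.61). Their mean was -0.58 ± 0.041 (SD over 2 probe sets), a smaller spread than the 0.31 pooled over genes with several probe sets at signals under 100. Csf2rb2, the IL-3-specific beta chain, gave 18.4 in RPE-exposed and 26.8 in control cells (-0.54), close to the floor on both. The 2 beta chain genes are neighbours of closely related sequence, and how far each probe set also reads the other gene's transcript is not known, which leaves both values uncertain.

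The alpha chains, which give each receptor its ligand, were dim on both arrays. Il3ra, the IL-3 receptor alpha chain, gave 22.7 in RPE-exposed and 30.3 in control cells (-0.42, like-level range -1.09 to 1.08). Csf2ra, the GM-CSF receptor alpha chain, gave 29.0 in RPE-exposed and 35.4 in control cells on its brighter probe set (-0.29). Its other probe set gave 0.9 in RPE-exposed and 2.2 in control cells, under the floor on both.

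**Figure D2:**
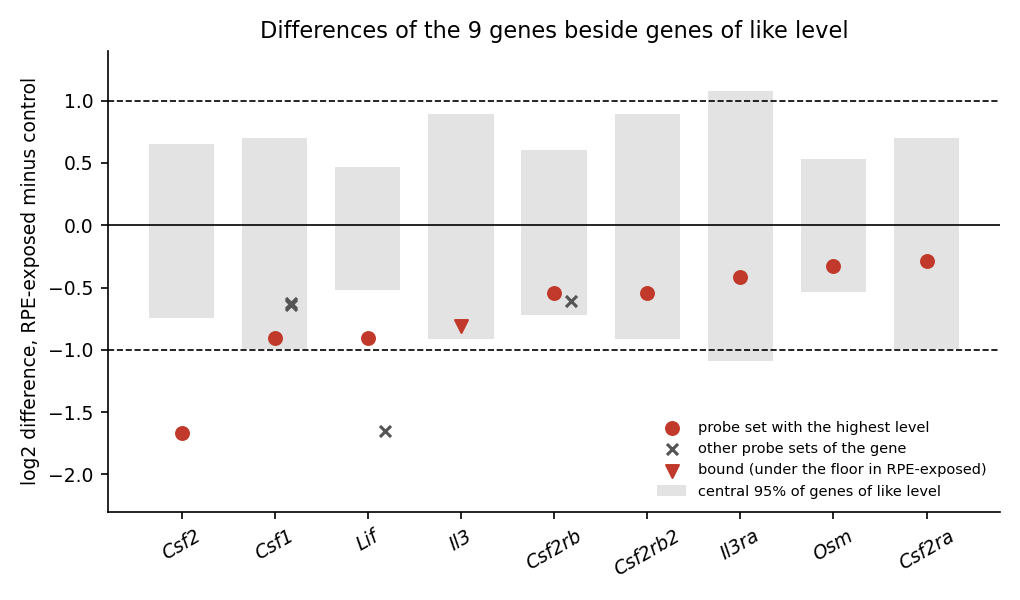
Log2 difference, RPE-exposed minus control, of the 9 genes, ordered from the lowest, with grey bars for the central 95% of genes of like level, crosses for further probe sets and a triangle for the Il3 bound. Dashed lines mark 2-fold. Csf2 (-1.67) and Lif (-0.91) lie under their grey bars and the other 7 genes lie within theirs.

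As a list, the related ligands and receptors of the same signalling families had a smaller median difference than the members. The ligand genes Il6 and Il5 nevertheless lay within the members' range of -1.665 to -0.288. Of 21 listed genes, 18 had a probe set, 9 reached the floor on at least 1 array, and none of the 9 was 2-fold different. Their median was -0.09, with 6 negative and 3 positive, where 51.5% of all genes compared were lower. Il6, the founding cytokine of the gp130 group, gave 45.4 in RPE-exposed and 70.4 in control cells (-0.63), and Il5, the remaining ligand of the shared beta chain, gave 18 and 24.6 (-0.45, exposed first).

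The signalling chains for LIF and oncostatin M were led by Il6st, the gp130 gene, at 162.6 in RPE-exposed and 167.1 in control cells (-0.04). Lifr gave 10.4 in RPE-exposed and 14.9 in control cells, and Osmr gave 9.3 in RPE-exposed and 4.5 in control cells, so both partner chains were under the floor on both arrays. Il6ra gave -0.28, and Clcf1, a further gp130 cytokine, -0.09. Il5ra was at the floor, with 13.5 in RPE-exposed and 17.1 in control cells, at least 1.07-fold lower. On the positive side were Crlf2, the receptor chain for thymic stromal lymphopoietin (0.41), Csf1r, the Csf1 receptor (0.11 on its brightest probe set and 0.92 with its probe sets averaged), and Csf3r, the granulocyte colony-stimulating factor receptor, which reached the floor in RPE-exposed cells only (20.5, against 11.6 in control cells, at least 1.29-fold higher).

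Among genes for signalling below such receptors, the list of transducers had a smaller median difference than the list of STAT3 and STAT5 targets. None of 14 measured kinase, STAT and adaptor genes was 1.5-fold different, and their median was -0.03. Jak2, the kinase bound by the shared beta chain, gave 529.3 in RPE-exposed and 780.4 in control cells (-0.56), under its like-level range of -0.44 to 0.51. Stat5a gave -0.33, and the adaptor Shc1 0.41. Of 14 genes known as targets of STAT3 and STAT5, 12 were lower in RPE-exposed cells, against 51.5% of all genes compared. None was 2-fold lower, against 0.626% of all genes, and the median over the 14 was -0.27. At least 1.5-fold lower were 3, against 3.81% of all genes. The 3 were the feedback inhibitors Cish (485.1 in RPE-exposed and 925.9 in control cells, -0.93), Socs3 (600.1 and 1077.4, same order, -0.84) and Socs1 (224.6 and 368.8, same order, -0.72). These targets also respond to interleukin-2, interleukin-6 and other cytokines, and a link to the cytokines of this family was not tested. Id1 reached the floor in RPE-exposed cells only, at 16.2, against 10.7 in control cells.

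Among genes for receptors and transcription factors that induce Csf2 and Il3 in T cells, 11 of 15 were lower in RPE-exposed cells. Of all genes compared, 51.5% were lower. At least 1.5-fold lower were 4 of the 15, against 3.81% of all genes, and the median over the 15 was -0.19. Jun, a subunit of AP-1, gave 215.7 in RPE-exposed and 396.2 in control cells (-0.88). Gata3, the Th2 factor, gave -0.80, and Fosl2, another AP-1 subunit, -0.70. Il1r1, the interleukin-1 receptor, reached the floor in control cells only (9.3 in RPE-exposed and 26.1 in control cells, at least 1.63-fold lower). For the NFAT genes the value depended on the probe set: Nfatc1 gave -0.02 on its brightest probe set and 0.26 when its probe sets were averaged, and Nfatc2 gave 0.40 and -0.42 (same order), so neither has a settled direction. Bhlhe40, a factor needed for GM-CSF production by helper T cells in mice, gave 840.9 in RPE-exposed and 762.2 in control cells (0.14). Factors that bind and destabilise or stabilise cytokine mRNA had a median of -0.09 over 11 genes, 6 negative and 5 positive and none 1.5-fold different, with Zc3h12a at -0.34 and Zfp36 at -0.27. Khsrp gave 0.29 on a probe set whose name marks shared sequence, -0.13 when its probe sets were averaged and -0.35 without such probe sets, so its direction is not settled. Averaging also turned Elavl1 from 0.11 to -0.38 and Tia1 from 0.09 to -0.16, and moved Hnrnpd from -0.13 to -0.41. Zfp36l2 and Zc3h12d stayed positive. The split into negative and positive genes thus depends on the probe sets used.

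The difference of Csf2 stood among those of other cytokine genes of activated T cells. Of 17 such genes with a probe set 15 were compared, and 14 were lower in RPE-exposed cells, against 51.5% of all genes compared. At least 2-fold lower were 9, against 0.626% of all genes, and none was 2-fold higher, against 0.436%. The median over the 15 was -1.12. Log2 differences lower than that of Csf2 were measured for Il13 (-2.05), the chemokine gene Xcl1 (-2.02) and Il17a (-1.81). Tnf was at least 5.32-fold lower, the signal in exposed cells being under the floor. Il24 (-1.595), Il4 (-1.48, but -0.14 with a 75th-percentile floor), Ccl3 (-1.12) and Ifng (-1.01) were 2-fold lower as well, and Il2 at least 2.49-fold lower. Lif had a value near those of Il21 (-0.98) and Ccl4 (-0.93), whereas Osm was near Lta (-0.35). Tgfb1 (-0.19) and Tnfsf11 (-0.02) differed less. Il10, the anti-inflammatory cytokine, went the other way at 237.3 in RPE-exposed and 140.6 in control cells (0.755). Il9 and Cd40lg were under the floor on both arrays.

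**Figure D3:**
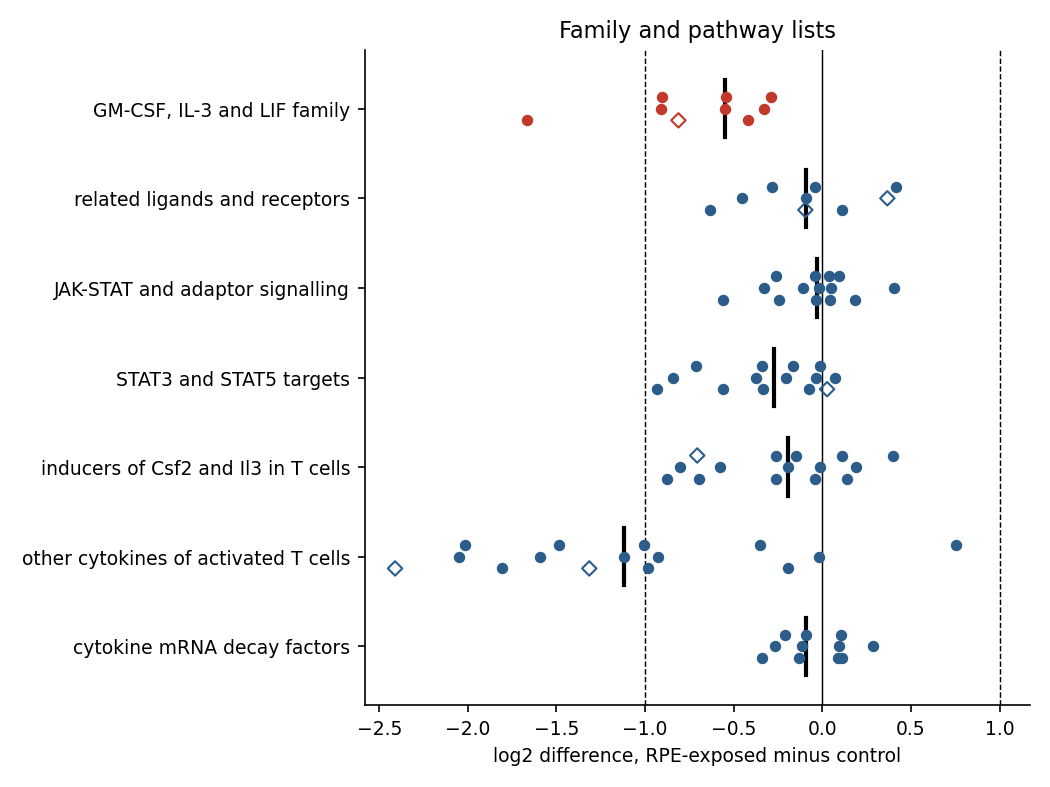
Log2 difference, RPE-exposed minus control, of each gene at or above the floor on at least 1 array, for the 9 genes (red) and 6 lists (blue), with medians as black bars, bounds as open diamonds and 2-fold as dashed lines. The family median is -0.55, that of other T-cell cytokines -1.12, and those of the other 5 lists lie between -0.27 and -0.03.

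Genes next to these loci were compared, since Csf2 with Il3, Osm with Lif, and Csf2rb2 with Csf2rb each lie side by side. The 5 nearest annotated genes on each side often had no probe set, so the 5 nearest protein-coding genes were taken as well, after the values were seen. Beside Csf2 and Il3, 6 of 10 such neighbours were compared and 5 were negative, against 51.5% of all genes compared. Acsl6, a fatty acid ligase gene on the Il3 side, gave 22.5 in RPE-exposed and 22.6 in control cells (-0.006). P4ha2, on the Csf2 side, was under the floor on both arrays. Pdlim4, the next gene beyond P4ha2, gave 51.5 in RPE-exposed and 90.4 in control cells (-0.81), and Fnip1 gave 313.8 and 448.5 (-0.515, same order). The other 3 compared lay between -0.22 and 0.03.

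Beside Osm and Lif, 9 of 10 protein-coding neighbours were compared, and they ran from -0.36 for Castor1, next to Osm, to 0.45 for Ccdc157. Beside the beta chain genes 8 of 10 were compared, from -0.38 for Tst to 0.27 for Mpst. Csf2, Lif and both beta chain genes had lower values than every compared protein-coding neighbour of their own locus. Osm did not, since Castor1 was lower, and Il3, with only a bound, was not ranked.

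**Figure D4:**
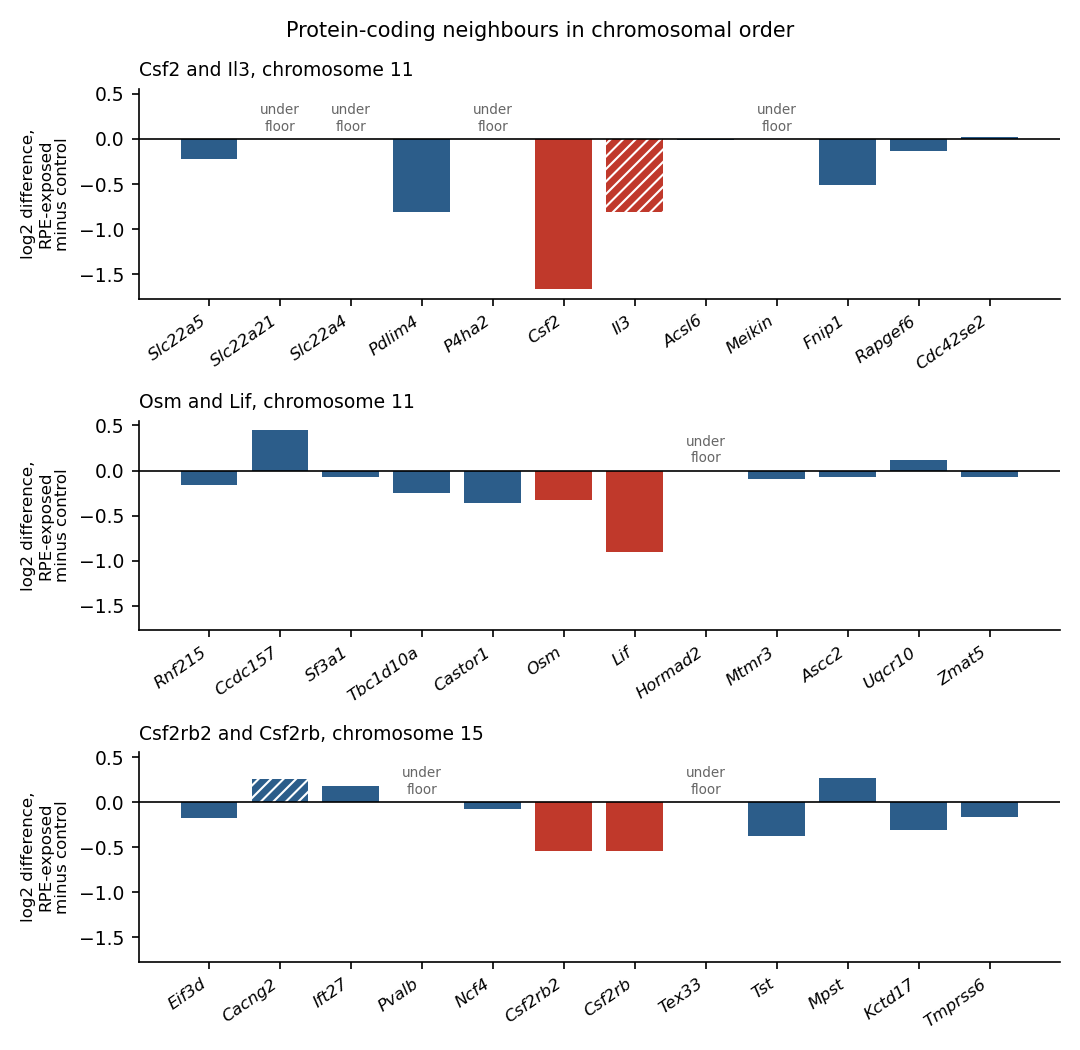
Log2 difference, RPE-exposed minus control, of the gene pairs (red) and their 5 nearest protein-coding neighbours on each side (blue), in chromosomal order and not to scale, with hatched bars for bounds. Csf2 (-1.67) and Lif (-0.91) are the lowest bars of their loci.

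Markers of cell types were read on the same arrays. T-cell markers were alike, with a median of 0.009 over 8 genes, 4 negative and 4 positive, and a summed signal of 11854.9 in RPE-exposed and 11218.0 in control cells. Cd4 gave 271.1 in RPE-exposed and 287.0 in control cells (-0.08, but 0.26 with its probe sets averaged), and Cd8a, the marker of the other main T-cell class, 694.6 and 568.8 (same order), so Cd8a was well above the floor in the sample titled CD4 T cells too. Cd3g and Cd3d gave 0.21 and 0.19.

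Markers of B cells were lower for the most part, and those of myeloid cells were mixed. Of 9 B-cell markers with a probe set 8 reached the floor on both arrays. Of these 8, 7 were lower in RPE-exposed cells (median -0.51), against 51.5% of all genes compared. The summed signal of the 9 was 1239.7 in RPE-exposed and 1892.8 in control cells. Vpreb3 (-1.265), Pou2af1 (-0.94) and Blk (-0.75) had the largest differences. Macrophage and dendritic-cell markers summed to 1238.0 in RPE-exposed and 1545.8 in control cells, with 7 of 11 compared lower and 4 higher (median -0.22), where 51.5% of all genes were lower. Most of each sum came from Ctss alone, at 992.9 in RPE-exposed and 1256.0 in control cells (-0.34), so the sums say little about the other markers. Lyz2 gave -0.59, Cd68 -0.54 and Cd14 -0.43, and Lyz1 was at least 2.58-fold lower. On the higher side, Csf1r is given above, and Mrc1 (at least 1.25-fold), Adgre1 (at least 1.12-fold) and Fcgr1 (at least 1.07-fold) reached the floor in RPE-exposed cells only. Itgam was under the floor on both arrays.

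Mast-cell and basophil markers, of cells that respond to IL-3, were all dim. Of the 9, 3 reached the floor in RPE-exposed and 6 in control cells. Summed signals were 134.9 in RPE-exposed and 191.5 in control cells. All 6 compared were lower in exposed cells (median -0.29), against 51.5% of all genes compared. Mcpt8, the basophil protease, gave 4.0 in RPE-exposed and 28.5 in control cells, and Ms4a2, a chain of the IgE receptor, 13.8 and 21.9 (same order). Gata2 gave -0.39, Cpa3 -0.19 and Kit -0.12, while Fcer1a, Mcpt4 and Tpsb2 were under the floor on both. Of the natural killer markers Klrd1, the brightest, gave 590.6 in RPE-exposed and 600.1 in control cells (-0.02). Klre1 gave -0.82, Ncr1 -0.27 and Eomes 0.11, and the median over the 4 genes was -0.15. The part of these cell types in the lower Csf2, Il3, Csf1, Lif and receptor signals was not tested.

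Markers of cells that could have been carried over from the epithelial culture were near or under the floor. Of 10 RPE markers, 9 were under it on both arrays and Mitf reached it in control cells only (15.2 in RPE-exposed and 17.3 in control cells), with sums of 51.9 in RPE-exposed and 65.7 in control cells. The 6 fibroblast markers summed to 58.1 in RPE-exposed and 58.3 in control cells, with 4 under the floor on both and Col1a2 (-0.42) and Lum (0.27) just above it. The 7 neutrophil markers summed to 58.3 in RPE-exposed and 44.1 in control cells, and only Csf3r, given above, and Elane (12.4 in RPE-exposed and 17.3 in control cells) reached it, each on 1 array.

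**Figure D5:**
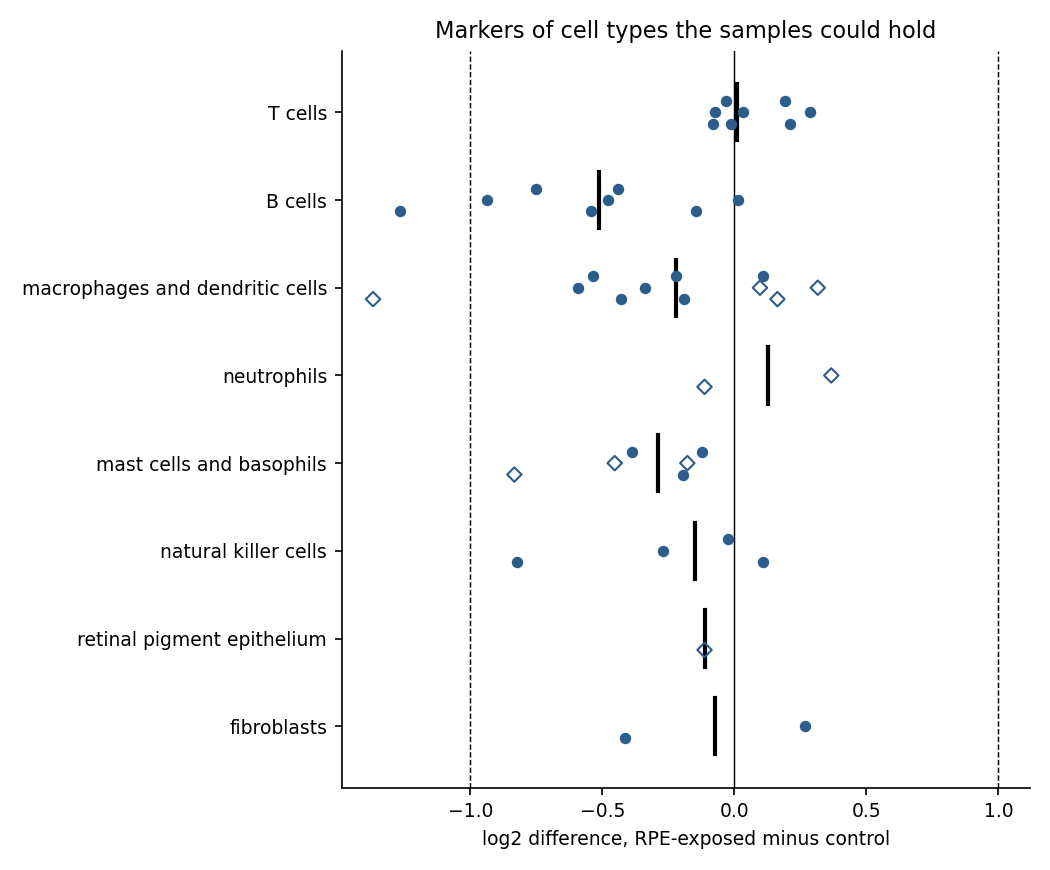
Log2 difference, RPE-exposed minus control, of the cell type markers at or above the floor on at least 1 array, with medians as black bars, open diamonds for bounds and dashed lines at 2-fold. T-cell markers centre on 0.009, and those of B cells (-0.51), mast cells and basophils (-0.29) and macrophages and dendritic cells (-0.22) lie lower.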

How the data were processed

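Total RNA was extracted with Trizol, column-purified, reverse transcribed and labelled with biotin by in vitro transcription, per the labels' protocols, for 1 array of RPE-exposed and 1 of control T cells. The deposited values are linear signal intensities of 45101 probe sets, 64 of them manufacturer's controls. Their mean without the lowest and highest 2% was 100 on each array, so no further scaling was applied. The labels name no summarization software, and detection calls were not used.

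Gene names came from the supplied platform annotation; 34945 probe sets name 1 gene, 932 several and 9160 none. All 9 members' gene identifiers were found in the RefSeq table of GRCm38.p6. Where a gene had several probe sets, the one of highest mean log2 signal stood for it. Of 18193 genes, 10011 were at or above the floor on both arrays and 1004 on 1, where a minimum fold was taken as the bright signal divided by the floor of the array where it was dim. The pooled SD of log2 differences between probe sets of a gene was 0.24 over 4779 genes. Start regions are RefSeq's.

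Computations used Python 3.11.15, numpy 2.4.6, pandas 2.3.3, scipy 1.17.1 and matplotlib 3.10.9, with the calling step tested on simulated data. In those data only brighter genes, at or above the floor on both arrays, were changed. Recovery of changes at the lower signals of Il3, Csf1, Csf2ra, Csf2rb2 and Il3ra was not tested. The members, lists and rules were chosen with earlier results of these data known. Genes named were every member, every measured gene of the related ligand, receptor and T-cell cytokine lists, and neighbours of the loci. From every other list, the 3 largest differences and 2 largest bounds were named. Lifr, Osmr, the other genes under the floor, the NFAT genes, Bhlhe40, Cd4 and Klrd1 were added after their values were seen. So were Adgre1, Fcgr1, Ctss, Elavl1, Tia1, Hnrnpd, Zfp36l2, Zc3h12d, Pdlim4, Fnip1 and the wider neighbours. The 8 alternatives changed the floor, the log scale, the scaling or the handling of probe sets.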

Additional observations from a re-analysis of the deposited data

How the results depend on the processing

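The count of members at least 2-fold lower, 1 in the reported setting, was 2 with a 25th-percentile floor, without any floor or with an offset of 16 (each Csf2 and Il3), also 2 when probe sets were averaged (Csf2 and Lif), and 0 with a 75th-percentile floor. No alternative made a member 2-fold higher, and every member compared was negative in all 8, though only 4 could be compared with the highest floor, and 8 after averaging or after leaving out probe sets whose names mark shared transcripts (x, s or a). The members' median moved to -0.255 at the 75th percentile, where signals under that floor are raised to it. Over all genes, 579 were 2-fold lower and 660 higher at the 25th percentile, 16 and 6 at the 75th, 1443 and 1587 with no floor, and 38 lower with an offset of 16. Most members lay within a few times the floor, which limits how well the size of their differences can be known. No paired analysis was possible because each group had 1 array, and for the same reason none could be left out.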

Other observations

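A further probe set is annotated to both beta chain genes, Csf2rb2 and Csf2rb, and was kept out of the comparison because it names 2 genes. It gave 6.9 in RPE-exposed and 15.5 in control T cells, under the floor on both arrays.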
